A study of Mus musculus with 847 samples.

Results

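The 8 genes described here are known as markers of the main neurons of the cerebellar cortex: Pcp2, Calb1, Car8, Itpr1 and Ppp1r17 for Purkinje cells, and Cbln1, Cbln3 and Zic1 for granule cells. They were taken by name from a table of 21076 genes, and all 8 were present. The table holds read counts of 847 libraries of bulk RNA from 15 brain regions of 59 C57BL/6JN mice, 34 males and 25 females, with at most 1 library for a region and mouse and from 51 to 59 libraries a region. Mice of 3, 12, 15, 18 and 21 months were of both sexes, with 5 of each sex at each age except for 6 males at 21 months, whereas the 5 mice of 26 months and the 3 of 28 months were all males. No treatment or genetic change is given in the labels. The cerebellum had 58 libraries, 34 from males and 24 from females. The series addresses how gene expression changes with age in different parts of the brain.

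Purkinje cells are the inhibitory output neurons of the cerebellar cortex. Their dendrites receive excitatory parallel fibres from granule cells, and signalling through Gq and phospholipase C beta at these synapses makes inositol trisphosphate (IP3), which opens the calcium channel ITPR1 on the endoplasmic reticulum. CAR8 binds ITPR1 and lowers its affinity for IP3, CALB1 buffers the calcium that enters, PCP2 is a regulator of Gi and Go proteins, and PPP1R17 inhibits protein phosphatases when it is phosphorylated by cGMP-dependent kinase. Granule cells release CBLN1, which organises the synapses between parallel fibres and Purkinje cells, and CBLN3, which forms complexes with CBLN1. ZIC1 is a zinc finger transcription factor of the granule cell lineage that also acts in other parts of the developing nervous system.

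Cerebellum libraries held from 731048 to 19041782 reads (median 6074170), and 2 of them held fewer than 1e+06. Values are reads of a gene per 1e+06 reads of the library (CPM) unless another scale is named. Gabra6, a receptor subunit of granule cells that is not among the 8 genes, checked the tissue: it lay between 237 and 624 CPM in the cerebellum libraries, and its median was at most 0.134 CPM in each of the other 14 regions. The summed level of 10 genes of brainstem neurons (Hox genes and markers of monoamine and motor neurons) did not exceed 2.39 CPM in a cerebellum library. Some libraries stood apart. The cerebellum library of mouse 23, a male of 18 months, had the highest sum of 8 oligodendrocyte genes (16486 CPM against a median of 7975) and the lowest Itpr1, Cbln1, Cbln3 and Zic1. The cerebellum libraries of mice 40 and 25 had the highest sums of 9 granulocyte genes (2949 and 799 CPM). Of the 789 libraries of other regions, 18 had Gabra6 at 2 CPM or more. Where leaving out one of these libraries changed a call on the 8 genes, the result without it is given.

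The start regions of 3 of the 8 genes are in the promoter table from RefSeq (build GRCm38.p6), and they are shown because 1 of them belongs to a Purkinje cell gene and 2 to granule cell genes. All 3 genes lie on the minus strand. Each sequence runs 5′ to 3′ along that strand and is the stretch of the 250 bases before the start that lies outside annotated exons; capitals mark an E box (CANNTG, searched on both strands, a motif that reads alike on both). The windows are chr8:3625607-3625778 for Pcp2, chr14:55884393-55884506 for Cbln3 and chr9:91365811-91366018 for Zic1.
Pcp2: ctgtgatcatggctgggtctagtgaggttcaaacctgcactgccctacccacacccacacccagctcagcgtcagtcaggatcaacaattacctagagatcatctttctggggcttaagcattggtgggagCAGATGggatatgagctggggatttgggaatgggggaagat
Cbln3: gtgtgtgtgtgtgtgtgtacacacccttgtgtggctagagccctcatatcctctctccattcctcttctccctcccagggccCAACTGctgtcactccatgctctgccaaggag
Zic1: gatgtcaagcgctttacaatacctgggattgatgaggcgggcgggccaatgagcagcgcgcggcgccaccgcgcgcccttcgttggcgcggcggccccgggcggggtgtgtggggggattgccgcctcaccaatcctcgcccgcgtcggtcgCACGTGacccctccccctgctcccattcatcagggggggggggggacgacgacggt
Each of the 3 genes had 1 E box in its 250 bases, as did 66.2% of 32851 RefSeq promoters of the same length with at least 1. The Pcp2 motif CAGATG begins 100 bases before the start, the Cbln3 motif CAACTG 168 bases and the Zic1 motif CACGTG 98 bases before it. AGGTCA, the core letters bound by nuclear receptors such as RORA, was found in Pcp2 alone of the 3 (12 bases before the start, beyond the stretch shown) and in 14.0% of all promoters, counting both strands. Zic1 held the letters GGGCGG 2 times and CCAAT 2 times, Pcp2 held CCAAT once on the other strand, and these motifs were in 32.7% and 33.8% of all promoters. TATAAA was in none of the 3 and in 12.4% of all. These are matches of letters and not measured sites.

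In GENCODE M21 (GRCm38) the genes lie on 5 chromosomes. Pcp2 (chr8:3623371-3625545, minus strand) is small, with 1828 exonic bases. On the opposite strand, exons of Pet100, a gene for a mitochondrial assembly factor, cover 941 of these bases (51.5%). The libraries were unstranded, so reads of Pcp2 and Pet100 cannot be told apart there. Calb1 (chr4:15881264-15908064, plus strand) and Car8 (chr4:8143362-8239041, minus strand) share a chromosome, and their exons overlap no other annotated exon. Itpr1 (chr6:108213096-108551109, plus strand) has 18319 exonic bases, and Ppp1r17 (chr6:56017497-56032689, plus strand) has 1757. Cbln1 (chr8:87468405-87472609), Cbln3 (chr14:55878913-55884392) and Zic1 (chr9:91358058-91365810) lie on the minus strand. Zic1 shares 60 exonic bases with Zic4 on the other strand.

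All 8 genes were higher in cerebellum than in any other region by median, and 7 of them had no library elsewhere that reached the lowest cerebellum library. In the fit over all 847 libraries, all 8 were higher in cerebellum than in the mean of the other 14 regions (edgeR's quasi-likelihood test, age and sex as covariates). Of all genes tested, 40.7% were called higher in that comparison. The differences ran from 2.76 log2 for Itpr1 (SE 0.030) to 11.64 for Cbln3 (SE 0.070), with 8.98 for Ppp1r17, 7.74 for Car8, 6.59 for Pcp2, 6.31 for Cbln1, 4.32 for Zic1 and 3.23 for Calb1. Against the neighbouring hindbrain regions alone, all 8 were again higher, where 44.9% of all genes were called higher against medulla and 44.7% against pons. These calls held for all 8 genes under every alternative run, including the mouse as a block.

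Among the Purkinje cell genes, Pcp2 was close to restricted to cerebellum. It ran from 412 CPM through a median of 585 to 707 in cerebellum, and its median lay between 4.94 and 6.89 CPM in all other regions. These 14 regions did not differ from their neighbours in order beyond their interquartile ranges. Pet100, whose exons overlap those of Pcp2, ran from 177 through 243 to 294 CPM in cerebellum, and its median lay between 21.6 and 29.8 CPM in the other regions.

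Car8 is a catalytically inactive relative of carbonic anhydrases. It ran from 2464 through 3668 to 4297 CPM in cerebellum, and thalamus was next with a median of 40.0 CPM, a ratio of 91.6. Hypothalamus and motor cortex followed at 26.8 CPM each, and anterior hippocampus was lowest at 4.55. Ppp1r17 ran from 291 through 370 to 476 CPM in cerebellum. Hypothalamus was the one other region with more than a few CPM (median 20.9), olfactory bulb had 4.71, and 6 regions had a median of 0.

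Calb1 and Itpr1 were the least restricted. Calb1 ran from 1658 through 1997 to 3184 CPM in cerebellum. Its median was 636 CPM in caudate putamen, 528 in entorhinal cortex, 456 in hypothalamus and 433 in thalamus, neighbours whose interquartile ranges overlap, and it was lowest in olfactory bulb at 21.6 CPM. The order for Itpr1 was graded. It ran from 592 through 859 to 1140 CPM in cerebellum, with medians of 419 in caudate putamen, 317 in corpus callosum, 276 in motor cortex and 234 in visual cortex. Each of these 5 regions was separated from the next by its interquartile range, and medulla was lowest at 26.2 CPM.

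Among the granule cell genes, Cbln3 was the most restricted of the 8. It ran from 501 through 921 to 1186 CPM in cerebellum. The next medians were 1.05 CPM in pons and 1.04 in medulla, a ratio of 877 to cerebellum, and 5 regions had a median of 0. Cbln1 ran from 134 through 221 to 262 CPM in cerebellum, and it was also present in hypothalamus (median 30.2), thalamus (26.2) and olfactory bulb (14.1). Zic1 overlapped with other regions. It ran from 166 through 328 to 418 CPM in cerebellum, while thalamus had a median of 157 and subventricular zone one of 153, and 47 of the 789 other libraries lay above the lowest cerebellum library. The highest of them had 262 CPM. Without mouse 23, the lowest cerebellum library had 242 CPM.

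**Figure D1:**
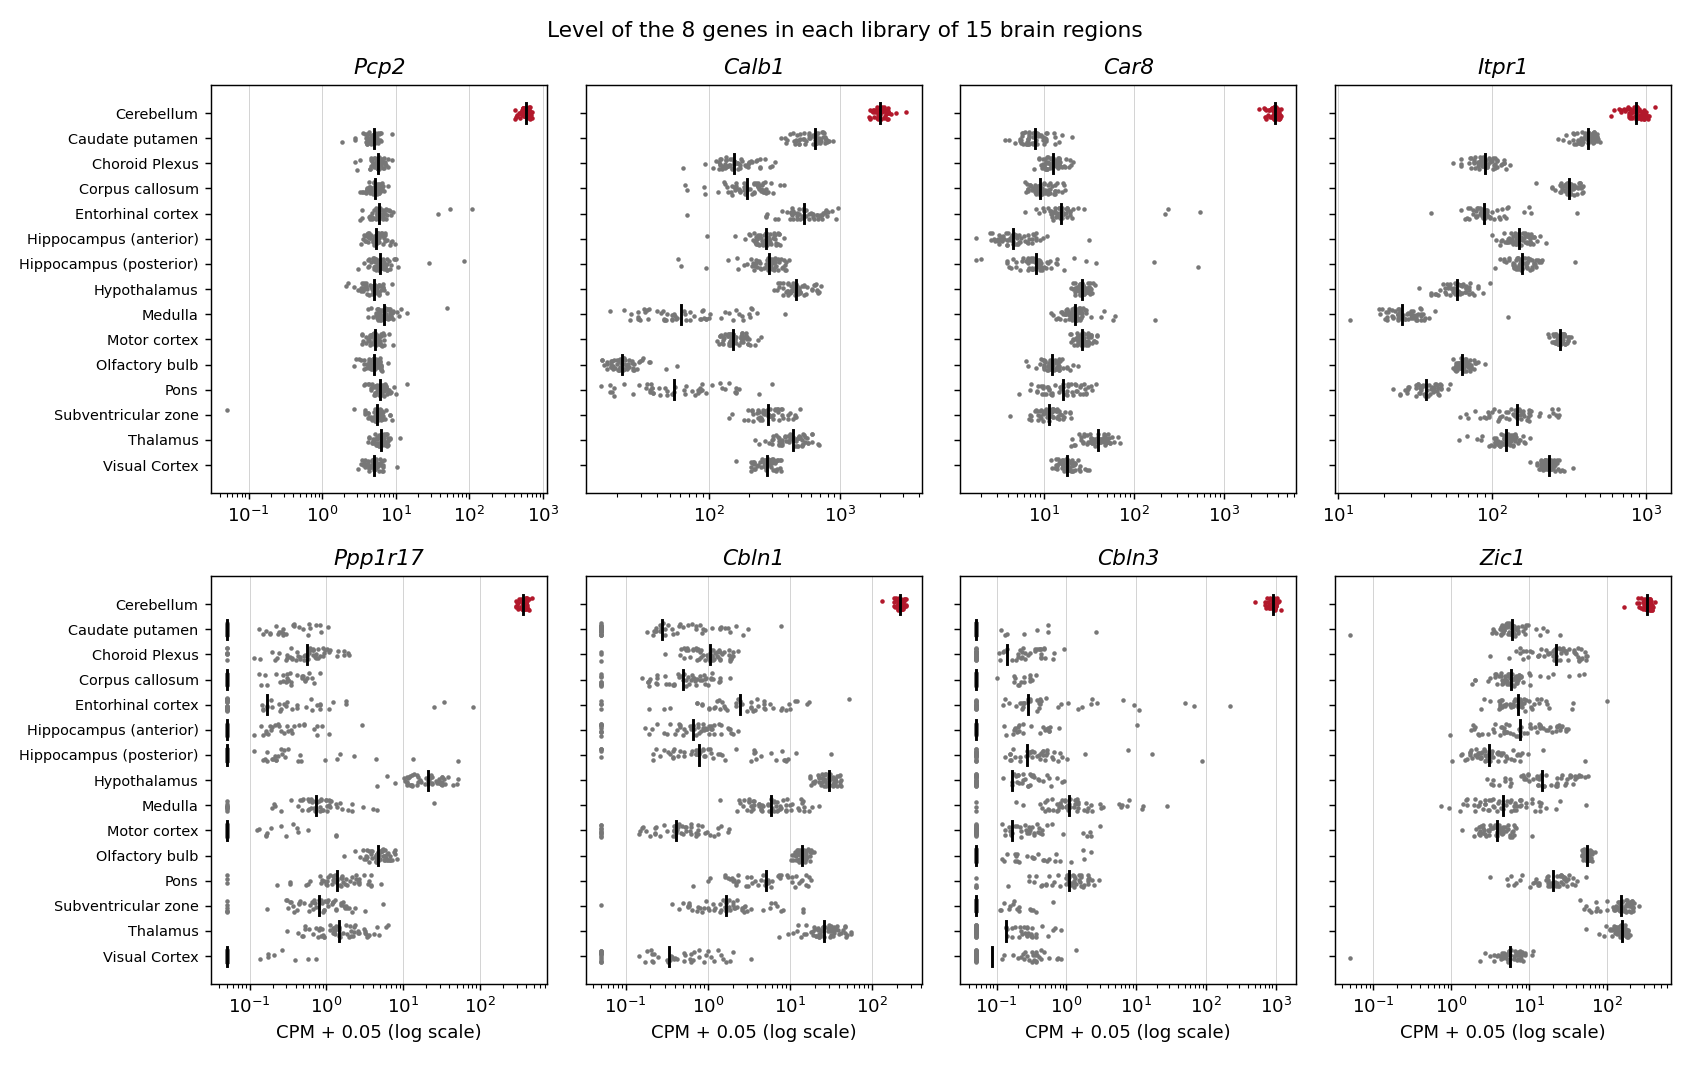
Each point is 1 library and each black bar a regional median of CPM, on a log axis with 0.05 added so that zeros show; cerebellum is in red. The cerebellum libraries lie to the right of all other libraries in every panel except that of Zic1, where thalamus and subventricular zone reach into their range.

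Levels of different genes were compared per kilobase of exon, with exonic bases joined over all annotated transcripts of a gene (13 for Itpr1 and 1 for Car8). Lengths of the transcripts expressed in these tissues were not measured, and the order per kilobase depends on this choice. On the scale of CPM per kilobase, the cerebellum medians were 952 for Car8, 412 for Calb1, 320 for Pcp2, 210 for Ppp1r17 and 46.9 for Itpr1 among Purkinje cell genes. They were 189 for Cbln3, 72.6 for Cbln1 and 57.6 for Zic1 among granule cell genes. Car8 was thus the highest of the 8 on both scales, and Itpr1, which has the most exonic bases, moved from the fourth place by CPM to the lowest per kilobase. In bulk tissue, fewer cells of a type and less RNA per cell cannot be told apart.

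The 18 libraries of other regions with Gabra6 at 2 CPM or more came from medulla (7), entorhinal cortex (6), posterior hippocampus (3), anterior hippocampus (1) and visual cortex (1). The highest was the entorhinal cortex library of mouse 14, a male of 26 months, with 92.2 CPM of Gabra6. It also held 224 CPM of Cbln3, 547 of Car8, 109 of Pcp2 and 80.4 of Ppp1r17, the highest values of these 4 genes outside cerebellum. Expressed as a percent of the distance from the median of the region's other libraries to the cerebellum median, Gabra6 stood at 18.5%, Pcp2 at 17.8%, Car8 at 14.6%, Ppp1r17 at 21.7% and Cbln3 at 24.3%. Itpr1 stood at 34.8%, Zic1 at 29.6%, Cbln1 at 23.1% and Calb1 at 14.1%, so the genes were not all near the Gabra6 value. In the posterior hippocampus library of mouse 5, the same measure was 10.6% for Gabra6, 13.6% for Pcp2, 13.8% for Car8, 14.1% for Ppp1r17 and 9.6% for Cbln3. There it was 27.0% for Itpr1, 15.0% for Zic1, 14.2% for Cbln1 and 6.9% for Calb1. In the entorhinal cortex libraries of mice 9 and 8 it was 5.0% and 4.9% for Gabra6, and 5.4% and 7.3% for Cbln3. Over all 8 genes it ran from 5.4% (Cbln3) to 11.9% (Itpr1) for mouse 9. For mouse 8 it ran from 5.4% (Pcp2) to 11.1% (Itpr1). In the 5 libraries with the most Gabra6, all 8 genes lay above the median of their region's other libraries. Over the 18 libraries, Cbln1, Cbln3, Zic1 and Ppp1r17 did so in 18, Pcp2 in 17, Car8 in 15, Itpr1 in 13 and Calb1 in 11. Whether these libraries contained tissue of the cerebellum was not tested. Without the 18 libraries, the highest value outside cerebellum fell to 5.66 CPM for Cbln3, 14.1 for Pcp2, 69.8 for Car8 and 52.5 for Ppp1r17.

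**Figure D2:**
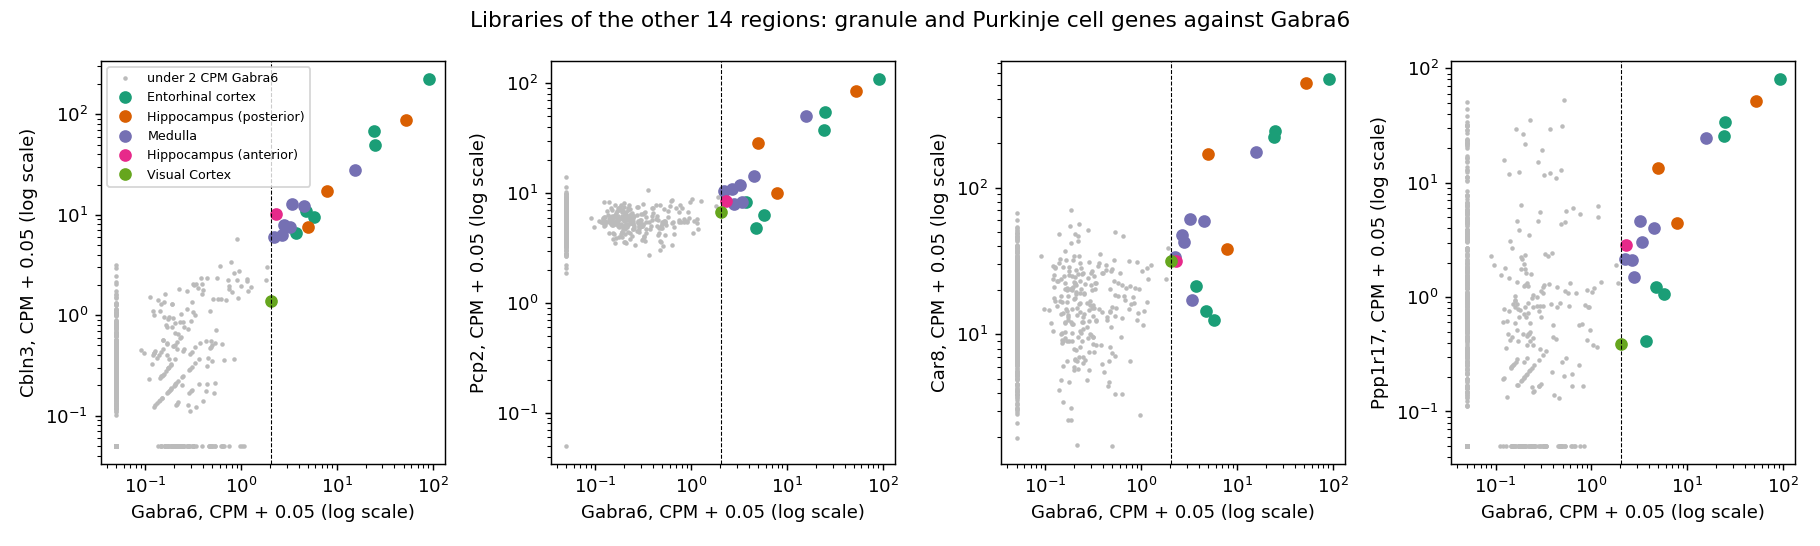
Each point is 1 library of the 14 regions other than cerebellum, with Gabra6 on the x axis and Cbln3, Pcp2, Car8 or Ppp1r17 on the y axis, both in CPM with 0.05 added on log axes. The 18 libraries at or above 2 CPM of Gabra6 (dashed line) are coloured by region, and the library with the most Gabra6 also has the most of each of the other 4 genes, with 224 CPM of Cbln3.

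Within cerebellum the genes varied by a small amount between mice. The coefficient of variation over the 58 libraries lay between 9.66% for Cbln1 and 12.7% for Zic1, and the highest library was from 1.64 times the lowest for Ppp1r17 to 2.52 times for Zic1. Mouse 23 gave the lowest library for Itpr1, Cbln1, Cbln3 and Zic1 and the highest for Calb1 and Ppp1r17. In that library Calb1 was at 3184 CPM and Ppp1r17 at 476, against 134 CPM of Cbln1, 501 of Cbln3 and 166 of Zic1.

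Most pairs of these genes within a cell type varied together, with exceptions given below. Itpr1 also varied with the granule cell gene Zic1, and the correlation of Cbln3 with Zic1 rested on few libraries. Pcp2, Car8 and Itpr1 did not follow the summed level of 12 other Purkinje cell genes. They were positively correlated with the summed level of 16 other genes of Purkinje calcium signalling. Over the 58 libraries, correlations of log2 CPM (TMM-normalized, prior count 2) were computed for all 28 pairs, with a 2-sided permutation p from 100000 resamples and Benjamini-Hochberg adjustment over the pairs. In all, 19 pairs passed, 14 positive and 5 negative. The 4 Purkinje cell genes Pcp2, Calb1, Car8 and Ppp1r17 were all positively correlated with one another. Calb1 and Ppp1r17 were closest (Pearson r = 0.90, Spearman rho = 0.88, adjusted permutation p = 2.8e-05 and 4.0e-05, from an unadjusted 1e-05, the smallest these resamples can give). For this pair r was 0.89 without the 2 libraries farthest from the median of Calb1, 0.94 within mice 1 to 15 (n = 14) and 0.92 within mice 16 to 56 (n = 41). Car8 and Ppp1r17 followed (r = 0.86, rho = 0.86, adjusted permutation p = 2.8e-05 and 4.0e-05), with 0.83 without the 2 farthest libraries, 0.92 within mice 1 to 15 and 0.78 within mice 16 to 56.

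The 3 granule cell genes were positively correlated as well. Cbln1 and Cbln3, whose proteins assemble together, had r = 0.76 and rho = 0.62 (adjusted permutation p = 2.8e-05 and 4.0e-05), with r = 0.61 without the 2 farthest libraries, 0.67 within mice 1 to 15 and 0.80 within mice 16 to 56. Cbln1 and Zic1 had r = 0.66 and rho = 0.52 (adjusted permutation p = 5.1e-05 and 0.00014), 0.50 without the 2 farthest libraries, and 0.54 and 0.76 within these mice. For Cbln3 and Zic1, r = 0.42 (adjusted permutation p = 0.0064) rested on the farthest libraries: it was 0.15 without them and rho was 0.18 (adjusted permutation p = 0.273). Without mouse 23 alone, r was 0.13 (adjusted permutation p = 0.475).

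Itpr1 was correlated with genes of both cell types, among the granule cell genes mainly with Zic1. It was correlated with Pcp2 (r = 0.56, rho = 0.52) and Car8 (r = 0.56, rho = 0.49), and also with Zic1 (r = 0.60, rho = 0.53). Without the 2 farthest libraries these r values were 0.46, 0.47 and 0.53. Within mice 1 to 15 they were 0.83, 0.76 and 0.39, and within mice 16 to 56 they were 0.37, 0.32 and 0.65. On residuals after age and sex were fitted, they were 0.39, 0.29 and 0.64. With Calb1, Itpr1 had r = 0.09 (adjusted permutation p = 0.553), and 0.39 without the 2 farthest libraries, which include mouse 23. Without mouse 23 alone this pair passed (r = 0.33, adjusted permutation p = 0.0246). With Cbln1, Itpr1 had r = 0.32 (adjusted permutation p = 0.0245), and 0.17 without mouse 23 (adjusted permutation p = 0.357). With Cbln3 it had r = 0.07 (adjusted permutation p = 0.641). With Ppp1r17 it had r = 0.35 (adjusted permutation p = 0.0135), and 0.10 on the residuals (adjusted permutation p = 0.463). For this pair r was 0.53 without mouse 23 (adjusted permutation p = 2.8e-05) and 0.48 without the 2 farthest libraries. It was 0.73 within mice 1 to 15 and -0.0010 within mice 16 to 56, which include mouse 23.

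The 5 negative pairs set a Purkinje cell gene against a granule cell gene: Pcp2 with Cbln3 (r = -0.38), Calb1 with Cbln1 (-0.39) and with Zic1 (-0.47), and Ppp1r17 with Cbln1 (-0.31) and with Cbln3 (-0.28). Adjusted permutation p-values ran from 0.0026 to 0.0472. Without the library of mouse 23, 1 negative pair was left, Pcp2 with Cbln3, beside 13 positive ones. Within mice 1 to 15 there were 10 positive pairs and 0 negative ones past the threshold, and within mice 16 to 56 there were 12 and 5. By Spearman's rho, the adjusted permutation p was 0.033 for Pcp2 with Cbln3, 0.167 for Calb1 with Zic1, and from 0.708 to 0.871 for the other 3 pairs.

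**Figure D3:**
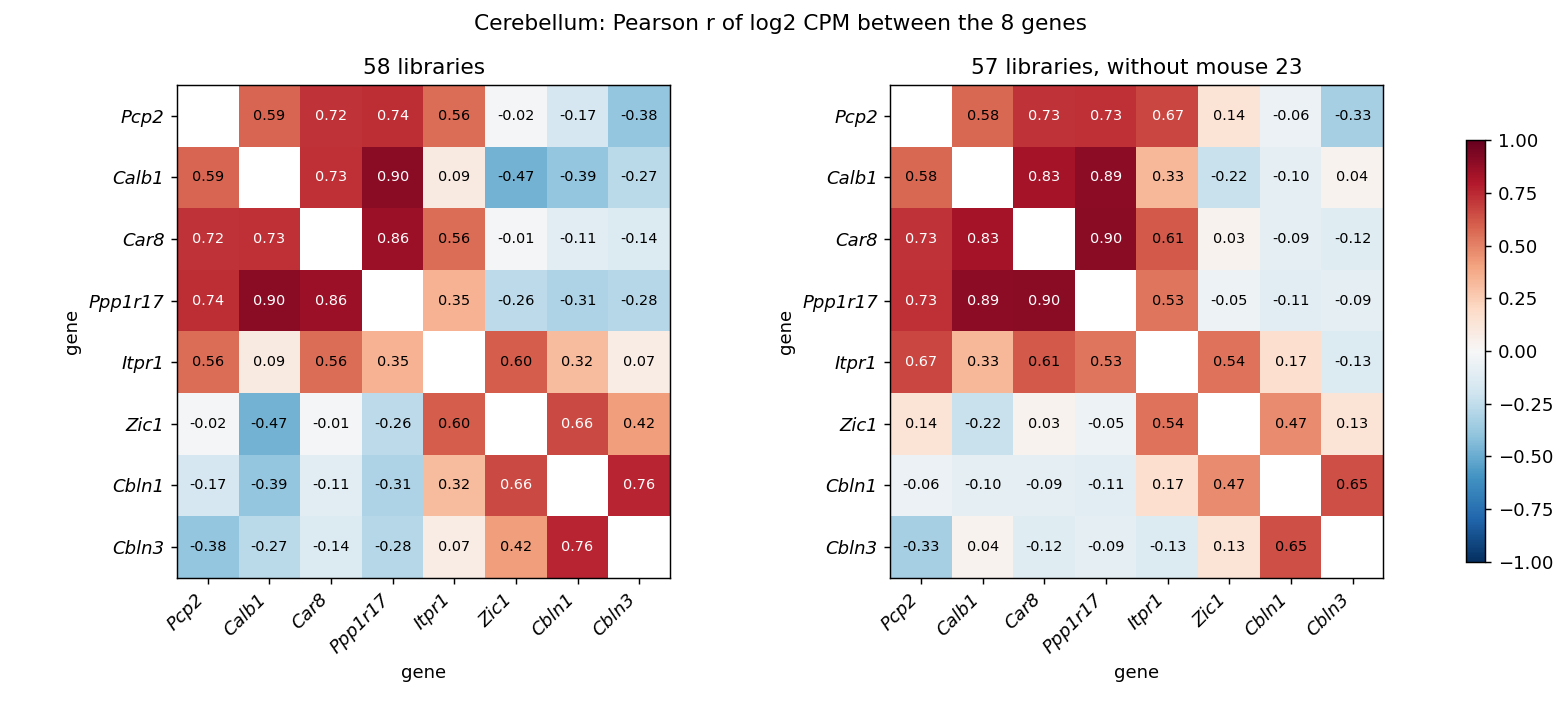
Colour and number give Pearson r of log2 CPM for each pair of genes over 58 cerebellum libraries (left) and over 57 without mouse 23 (right). The 4 Purkinje cell genes at the upper left and the granule cell genes at the lower right form positive squares in both panels, while most negative values between them are nearer 0 on the right.

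Sums of fixed marker lists were set beside the genes as a description over the same 58 libraries, which share depth and normalization. Cbln3 had r = 0.90 with the sum of 15 other granule cell genes, Cbln1 0.74 and Zic1 0.48. Without mouse 23 these were 0.86, 0.65 and 0.27. Pcp2 had r = 0.77 with the sum of cerebellar interneuron genes, which include Pvalb, a calcium buffer of Purkinje cells as well as interneurons. With the sum of 16 other genes of Purkinje calcium signalling, r was 0.71 for Itpr1, 0.68 for Car8, 0.59 for Pcp2, 0.57 for Ppp1r17 and 0.44 for Calb1. With the sum of 12 other Purkinje cell genes it was 0.43 for Calb1 and 0.23 for Ppp1r17, and 0.04 for Pcp2, -0.02 for Car8 and -0.10 for Itpr1. Mouse 8, a male of 26 months whose library held fewer than 1e+06 reads, had the highest of these sums (7046 CPM) and the lowest Car8 and Ppp1r17. Against the oligodendrocyte sum, r lay between -0.39 for Itpr1 and 0.05 for Calb1, and its part in the results was not tested.

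The genes closest to each of the 8 were taken among the 11461 whose cerebellum mean reached 5 CPM. Over the 58 libraries, Pcp2 was closest to Pet100 (r = 0.97), the gene that shares its exonic bases, and then to Pvalb (0.84). Calb1 was closest to Ywhah (0.96) and Ppp1r17 (0.90), Car8 to Ppp1r17 (0.86) and Opn3 (0.86), and Ppp1r17 to Calb1 (0.90). Itpr1 was closest to Shank2, a scaffold of excitatory synapses (0.86), and Atp2a2, the pump that refills the endoplasmic reticulum with calcium (0.84). Cbln3 was closest to Grin2c (0.86), the NMDA receptor subunit of mature granule cells, and Neurod1 (0.85), Cbln1 to Dab2ip and Cdc42bpg (0.78 each), and Zic1 to Ndst3 (0.89) and Bsn (0.87). Over the 15 region means, genes among the closest were Gabra6 and Hes3 for Pcp2, Reep6 and Tmem63c for Calb1, Hes3 and Il22 for Car8, and Camk4 for Itpr1. They were Tnrc6a and Pomt2 for Cbln1, Crtam and Pcp2 for Cbln3, Zic4 and Zic2 for Zic1, and Tchp and Zfp687 for Ppp1r17, with r from 0.88 to 1.00 over all 8 genes. These genes were picked as the highest of 11461 over only 15 points. For Pcp2, Car8 and Cbln3 the cerebellum lay far above all other regions, so its mean weighs heavily in their r values.

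With age, cerebellum levels of 7 of the 8 genes passed no test of a trend, and Car8 alone fell. The slope of Car8 was -0.0080 log2 per month (SE 0.0028, edgeR quasi-likelihood test with sex as covariate, adjusted p = 0.0405 over 13778 genes). Over all genes, 17% were called in either direction, 9.45% rising and 7.52% falling, so that 1 falling gene of 8 is near the background. The call ended with RLE factors (adjusted p = 0.0512), library totals (0.0725), no filter (0.0548), males alone (0.110), library depth as a covariate (0.0733) and without mice 25 and 40 (0.0523). It also ended in 28 of the 58 fits that each left out 1 library.

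The median Car8 level was 4042 CPM at 3 months (range 2964 to 4227, n = 10), 3665 at 12 months (2821 to 4015, n = 9) and 3785 at 15 months (3511 to 4170, n = 10). It was 3434 CPM at 18 months (2952 to 4297, n = 10), 3811 at 21 months (3585 to 4280, n = 11), 2856 at 26 months (2464 to 3130, n = 5) and 3474 at 28 months (3415 to 3873, n = 3). The 26-month mice were the low group, with 2 of their 5 values inside the range of 3-month mice, and the levels did not decline steadily from age to age. Mice of 12 and 26 months carry the numbers 1 to 15. Without mice 1 to 15 the Car8 slope was -0.0041 (adjusted p = 0.344).

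The other slopes were 0.00096 log2 per month for Pcp2 (SE 0.0032, adjusted p = 0.903), -0.0055 for Calb1 (SE 0.0033, 0.261), -0.0044 for Itpr1 (SE 0.0029, 0.330) and -0.0051 for Ppp1r17 (SE 0.0027, 0.204). Among granule cell genes they were -0.00094 for Cbln1 (SE 0.0023, 0.854), -0.0040 for Cbln3 (SE 0.0031, 0.421) and -0.0047 for Zic1 (SE 0.0030, 0.310). The median slope of the 8 genes was -0.0046 and that of all genes 4.5e-05. In simulated counts, 40% of true slopes of 0.01 log2 per month were recovered, for 100 genes drawn at random among 13672. Recovery for genes at the levels of these 8 was not tested. All 8 slopes were smaller in size than 0.01, so trends of their size could be missed.

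Setting each later age against 3 months, which all 6 comparisons share, 3 calls were made among the 8 genes. At 26 months Car8 fell by 0.43 log2 (SE 0.074, edgeR adjusted p = 4.3e-05) and Ppp1r17 fell by 0.31 (SE 0.075, adjusted p = 0.0041), where 7.44% of all genes were called. The 26-month Ppp1r17 levels were 291, 297, 298, 300 and 339 CPM, against 308 to 403 at 3 months (median 389, n = 10). Of the 26-month libraries, 1 thus lay inside the range of the youngest mice. With DESeq2, Itpr1 passed as well (adjusted p = 0.0425). In edgeR, Itpr1 and Calb1 had differences of -0.26 (SE 0.088, adjusted p = 0.0528) and -0.25 (SE 0.098, adjusted p = 0.115), and Pcp2 had -0.19 (SE 0.087, adjusted p = 0.185). The granule cell genes had 0.02 (Cbln1), 0.05 (Cbln3) and -0.13 (Zic1) with adjusted p-values from 0.481 to 0.958. The 5 Purkinje cell genes all had differences below 0, 2 of them past the threshold. Of the 12 other Purkinje cell genes, 11 had differences below 0 and 1 passed (Pcp4, a calmodulin regulator, -0.20, edgeR adjusted p = 0.0425), with a median of -0.08 beside -0.0034 for all genes. Their summed level had medians of 5524 CPM at 3 months and 5487 at 26 months, where it ran from 4608 to 7046. Aldoc, an aldolase of a subset of Purkinje cells and of astrocytes, had a difference of 0.24 (adjusted p = 0.318). In males alone, 10 of these 12 genes had differences below 0 and 0 passed. Of 16 further genes of Purkinje calcium signalling, 13 had differences below 0 at 26 months, with a median of -0.15. Plcb4 and Prkg1 fell and Itpr3 rose, where 2.74% of all genes fell and 4.7% rose. In males alone, Plcb4 fell and Itpr3 rose.

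Both 26-month calls held in each of 25 fits that left out 1 mouse of 3, 18 or 26 months, with adjusted p up to 0.00071 for Car8 and 0.019 for Ppp1r17. In males alone, Car8 kept its call and Ppp1r17 had adjusted p = 0.0569. Without mouse 23, Itpr1 (adjusted p = 0.031) and Calb1 (0.0401) also passed at 26 months, Car8 passed at 18 months (0.0405), Cbln3 at 18 months was lost, and the calls rose from 3 to 5. Without mouse 37 there were also 5, as Itpr1 passed at 26 months (0.0336) and Car8 at 18 months (0.0467). As the 26-month mice share the block of low mouse numbers with the 12-month mice, the 2 ages were also compared within mice 1 to 15 (n = 5 and 9). There the differences of 26 from 12 months were -0.29 for Car8 (SE 0.083, edgeR adjusted p = 0.157), -0.31 for Ppp1r17 (SE 0.082, adjusted p = 0.117), -0.24 for Calb1, -0.21 for Itpr1 and -0.14 for Pcp2. None of the 8 genes passed in edgeR, and 0.631% of all genes did. Before adjustment, 4 had a p under 0.05 (Car8, Calb1, Ppp1r17 and Itpr1). With DESeq2, Ppp1r17 passed (adjusted p = 0.0485). The share of mitochondrially encoded reads in the 26-month libraries had a median of 2.55% (range 2.26% to 2.89%) and that of the 3-month libraries 3.00% (2.80% to 3.39%), and its part in the result was not tested.

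At 18 months Cbln3 fell by 0.21 log2 (SE 0.068, edgeR adjusted p = 0.0439), where 7.1% of all genes were called. Its median was 891 CPM at 18 months (range 501 to 954) and 966 at 3 months (899 to 1007), and the ranges overlap. The call ended without mouse 23 (adjusted p = 0.0964), with library totals (0.0762), with no filter (0.0510), in males alone (0.117) and in 12 of the 25 fits that each left out 1 mouse. None of the 8 genes passed at 12 months (2.76% of all genes called), 15 months (2.24%), 21 months (10.1%) or 28 months (6.79%) in edgeR or in DESeq2. Before adjustment, an edgeR p under 0.05 was found at 12 months for 1 gene (Zic1), at 15 months for 2 (Pcp2 and Cbln3), at 21 months for 1 (Cbln3) and at 28 months for 0. At 28 months, with 3 mice, Car8 levels were 3415, 3474 and 3873 CPM and Ppp1r17 levels 350, 366 and 383 CPM, all within the range of 3-month mice.

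**Figure D4:**
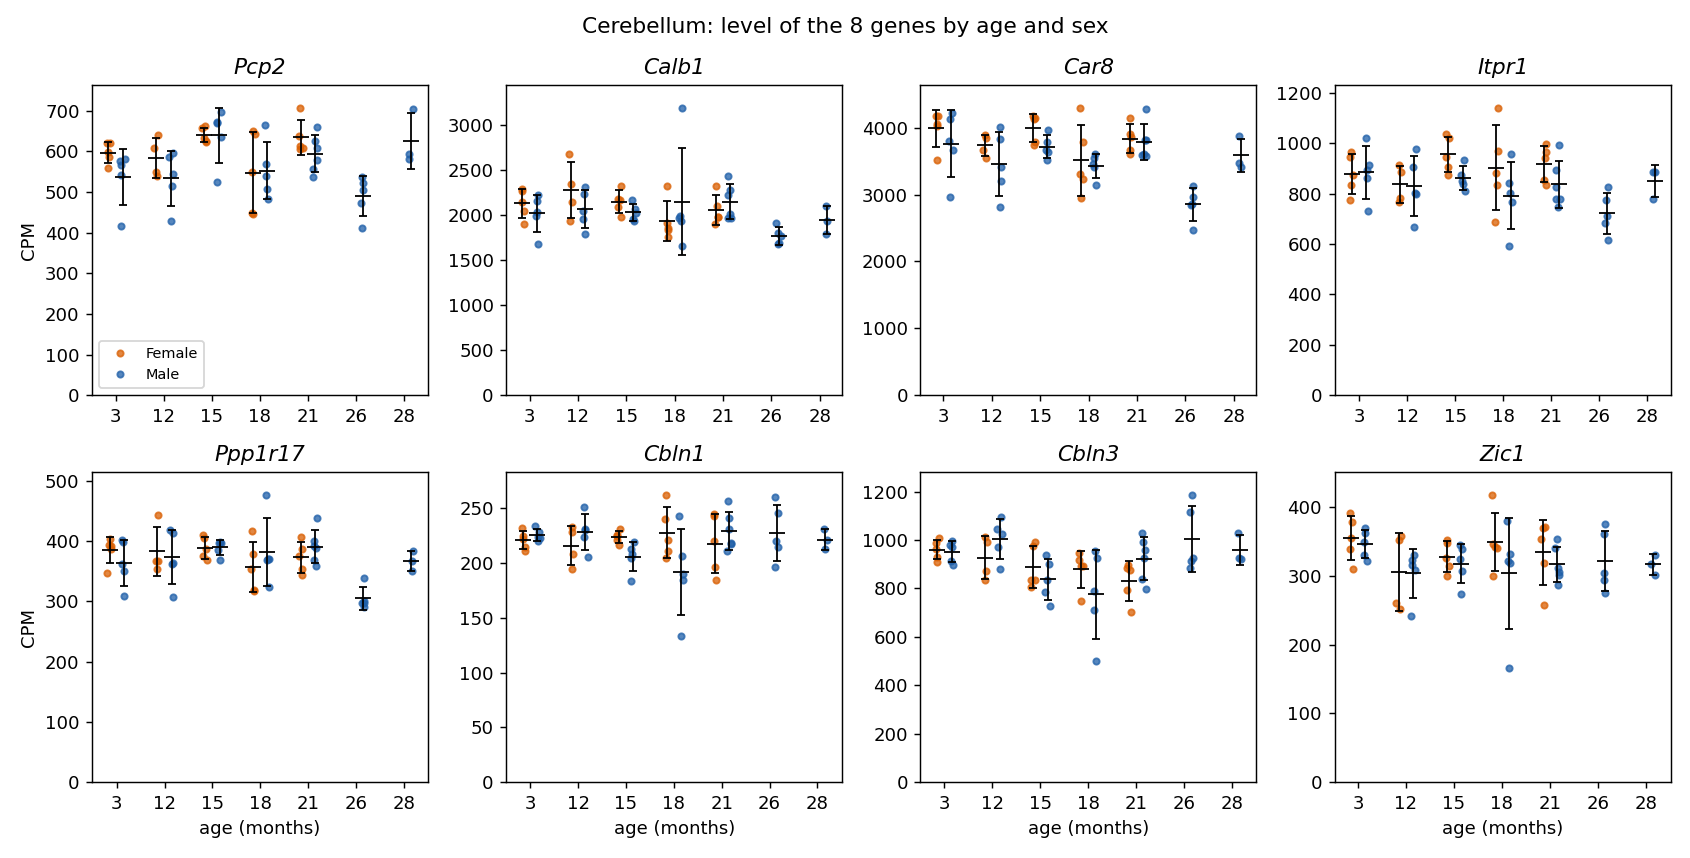
Points are cerebellum libraries in CPM by age in months, with females in orange and males in blue; black marks and bars are the mean and SD of each sex and age, and the axes start at 0. The 26-month males lie low for Car8 (2464 to 3130 CPM) and Ppp1r17 (291 to 339 CPM), and the 28-month males lie within the range of younger mice.

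The sexes did not differ past the threshold for any of the 8 genes. At 3 to 21 months (26 males, 24 females), 0 of 8 passed for level, where 0.457% of all genes did, and 0 of 8 for the age slope, where 0.516% did (edgeR, adjusted p). DESeq2 also gave 0 for both. Before adjustment, Itpr1 alone had a p under 0.05 for level (male minus female -0.10 log2, SE 0.043, unadjusted p = 0.029, adjusted p = 0.425), with medians of 839 CPM in males and 895 in females. Car8 had a difference of -0.07 (SE 0.037, adjusted p = 0.515), with medians of 3621 and 3854 CPM. The difference of slopes, male minus female, ran from -0.0096 log2 per month for Itpr1 to 0.011 for Calb1, with adjusted p-values from 0.608 to 0.952 and 0 genes at an unadjusted p under 0.05.

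Other genes of the same cells and pathways were read from fixed lists, beside the 9.45% of all genes that rose and the 7.52% that fell. Of 12 further Purkinje cell genes, among them Pcp4, Rora and Aldoc, 0 rose and 0 fell in cerebellum with age in edgeR and in DESeq2 (3 at an unadjusted p under 0.05; Pcp4 fell without mice 25 and 40), and their median slope was -0.0026 log2 per month. Of 16 further genes of Purkinje calcium signalling, 1 rose and 2 fell, with a median of -0.0050. Gnaq, the alpha subunit of Gq, had a slope of -0.0067 (SE 0.0020, edgeR adjusted p = 0.0109), with 240 ± 14.3 CPM at 3 months (SD, n = 10) and 222 ± 10.9 at 28 months (SD, n = 3). Plcb4, a phospholipase C beta of Purkinje cells, had -0.0051 (SE 0.0018, adjusted p = 0.0408), with 459 ± 31.1 and 427 ± 23.6 CPM. In males alone Plcb4 was the 1 gene of this list that fell, and without mice 25 and 40 it was Gnaq. Itpr3, an IP3 receptor of other cell types, rose by 0.038 per month (SE 0.0053) from 8.81 ± 1.34 to 15.2 ± 2.23 CPM.

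Of 15 further granule cell genes, 0 rose and 5 fell, with a median slope of -0.0063 log2 per month beside 4.5e-05 for all genes. Without mouse 23, 6 fell, without mice 25 and 40, 3 (Gabra6, Grm4 and Neurod1), and in males alone 1 (Gabra6). The summed level of the list did not decline steadily: its median was 5262 CPM at 3 months, 5470 at 12, 4811 at 15, 4876 at 18, 4939 at 21, 5276 at 26 and 4665 at 28 months. None of the list passed at 26 against 3 months in edgeR or in DESeq2, and 1 had an unadjusted edgeR p under 0.05. Gabra6 had -0.014 (SE 0.0041, edgeR adjusted p = 0.0136), with 564 ± 40.6 CPM at 3 months and 474 ± 33.8 at 28 months. Grm4, the presynaptic glutamate receptor of parallel fibres, had -0.013 (adjusted p = 0.0038) and Neurod1, a transcription factor, had -0.010 (adjusted p = 0.0131). Gabrd, the GABA receptor subunit of tonic inhibition, and Pax6 fell as well. The other 4 members of the Zic family passed in neither direction.

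Markers of other cells moved with age in the same libraries. Of 8 microglia genes, 7 rose and 0 fell, and their sum had a median of 184 CPM at 3 months and 378 at 28 months. C1qa rose from 14.6 ± 2.38 to 47.7 ± 7.77 CPM. Of 9 genes of Bergmann glia and astrocytes, Gfap and Aldh1l1 rose and Wif1 and Slc1a3 fell. Of 10 interneuron genes tested, Eomes, a marker of unipolar brush cells, fell from 34.1 ± 7.46 to 18.5 ± 3.89 CPM. Of 8 oligodendrocyte genes Cldn11 fell, and of 6 genes of meningeal fibroblasts Lum and Slc6a13 rose. No gene passed among the 5 endothelial, 6 tested choroid plexus, 9 granulocyte and 5 red blood cell genes, and no brainstem gene passed the filter. In males alone, 5 of the 9 granulocyte genes and 1 fibroblast gene (Col1a1) fell, and 1 choroid plexus gene rose. The 7 microglia genes also rose without mouse 23, without mice 25 and 40 and in males alone. The part of these cells in the results for the 8 genes was not tested.

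Outside cerebellum, 13 calls were made for the age slope of the 8 genes over the other 14 regions, 7 of them falls of Car8. From 5 to 8 of the genes were tested in a region, where from 0.0964% to 20.2% of all genes were called. Car8 fell in caudate putamen by 0.034 log2 per month (SE 0.0073, edgeR adjusted p = 0.00070), in corpus callosum by 0.034 (SE 0.0055, adjusted p = 4.5e-06), in anterior hippocampus by 0.036 (SE 0.011, adjusted p = 0.0229) and in the subventricular zone by 0.029 (SE 0.0056, adjusted p = 0.00025). It fell by 0.022 in visual cortex (SE 0.0048, adjusted p = 0.0015), by 0.014 in motor cortex (SE 0.0038, adjusted p = 0.0086) and by 0.012 in hypothalamus (SE 0.0034, adjusted p = 0.0182). These regions differ from cerebellum in level by a large factor. In corpus callosum the Car8 median was 13.2 CPM at 3 months (range 11.8 to 17.0, n = 10) and 8.42 at 28 months (7.41 to 8.93, n = 3), and these ages do not overlap. Between them the medians were 9.63 at 12, 8.05 at 15, 8.43 at 18, 8.82 at 21 and 6.74 at 26 months, with no steady decline. The highest libraries of 12 and 18 months, at 16.9 and 16.2 CPM, lay inside the 3-month range. In motor cortex the Car8 median was 31.2 (26.2 to 39.2) at 3 months and 27.7 (19.6 to 31.3) at 28 months, and these ages overlap. In males alone, the calls in anterior hippocampus (adjusted p = 0.0978) and hypothalamus (0.238) ended.

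The share of all genes called differed widely among these regions. It was 13.4% in caudate putamen, 17.8% in corpus callosum, 9.39% in anterior hippocampus, 7.77% in subventricular zone, 9.59% in visual cortex, 16.6% in motor cortex and 6.88% in hypothalamus, the 7 regions in which Car8 fell. None of the 8 genes passed in choroid plexus (20.2% of all genes called), olfactory bulb (15.6%), medulla (10.3%), pons (4.69%), thalamus (3.83%) or entorhinal cortex (0.0964%). Posterior hippocampus, described next, had 6.04%. Without the libraries that had Gabra6, Itpr1 passed in medulla with a slope of 0.015 (SE 0.0053, adjusted p = 0.0477).

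Calb1 fell in anterior hippocampus by 0.021 log2 per month (SE 0.0045, edgeR adjusted p = 0.0013) and in motor cortex by 0.021 (SE 0.0036, adjusted p = 1.9e-05). Granule cells of the dentate gyrus are among the cells of the hippocampus that express Calb1. Which cells the fall came from was not tested. In males alone the hippocampal call ended (adjusted p = 0.112). Cbln1 fell in caudate putamen by 0.11 per month (SE 0.028, adjusted p = 0.0035) at a median of 0.227 CPM, with 20 of 58 libraries at 0. Cbln3 rose in motor cortex by 0.11 (SE 0.034, adjusted p = 0.0220) at a median of 0.117 CPM. This rested on 154 reads in 59 libraries, 22 of them with no read. Its mean was 0.110 CPM at 3 months, 0.673 at 21, 0.117 at 26 and 0.210 at 28 months, so the oldest mice were near the youngest. No motor cortex library reached 2 CPM of Gabra6 (highest 1.84), so leaving out libraries by Gabra6 removed none there. In males alone Cbln3 did not pass the filter in motor cortex, and Cbln1 in caudate putamen kept its call (adjusted p = 0.0114). In posterior hippocampus Cbln3 rose by 0.27 (SE 0.052, adjusted p = 0.00038) and Ppp1r17 by 0.19 (SE 0.055, adjusted p = 0.0283; 0.0528 in males alone). These 2 rises rested on the libraries with Gabra6, of mice 5 (26 months), 57 (28 months) and 19 (18 months): without them neither gene passed the filter on low counts. Car8 in the same region had a slope of 0.085 (adjusted p = 0.0939) with these libraries and -0.031 (adjusted p = 0.0695) without them.

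**Figure D5:**
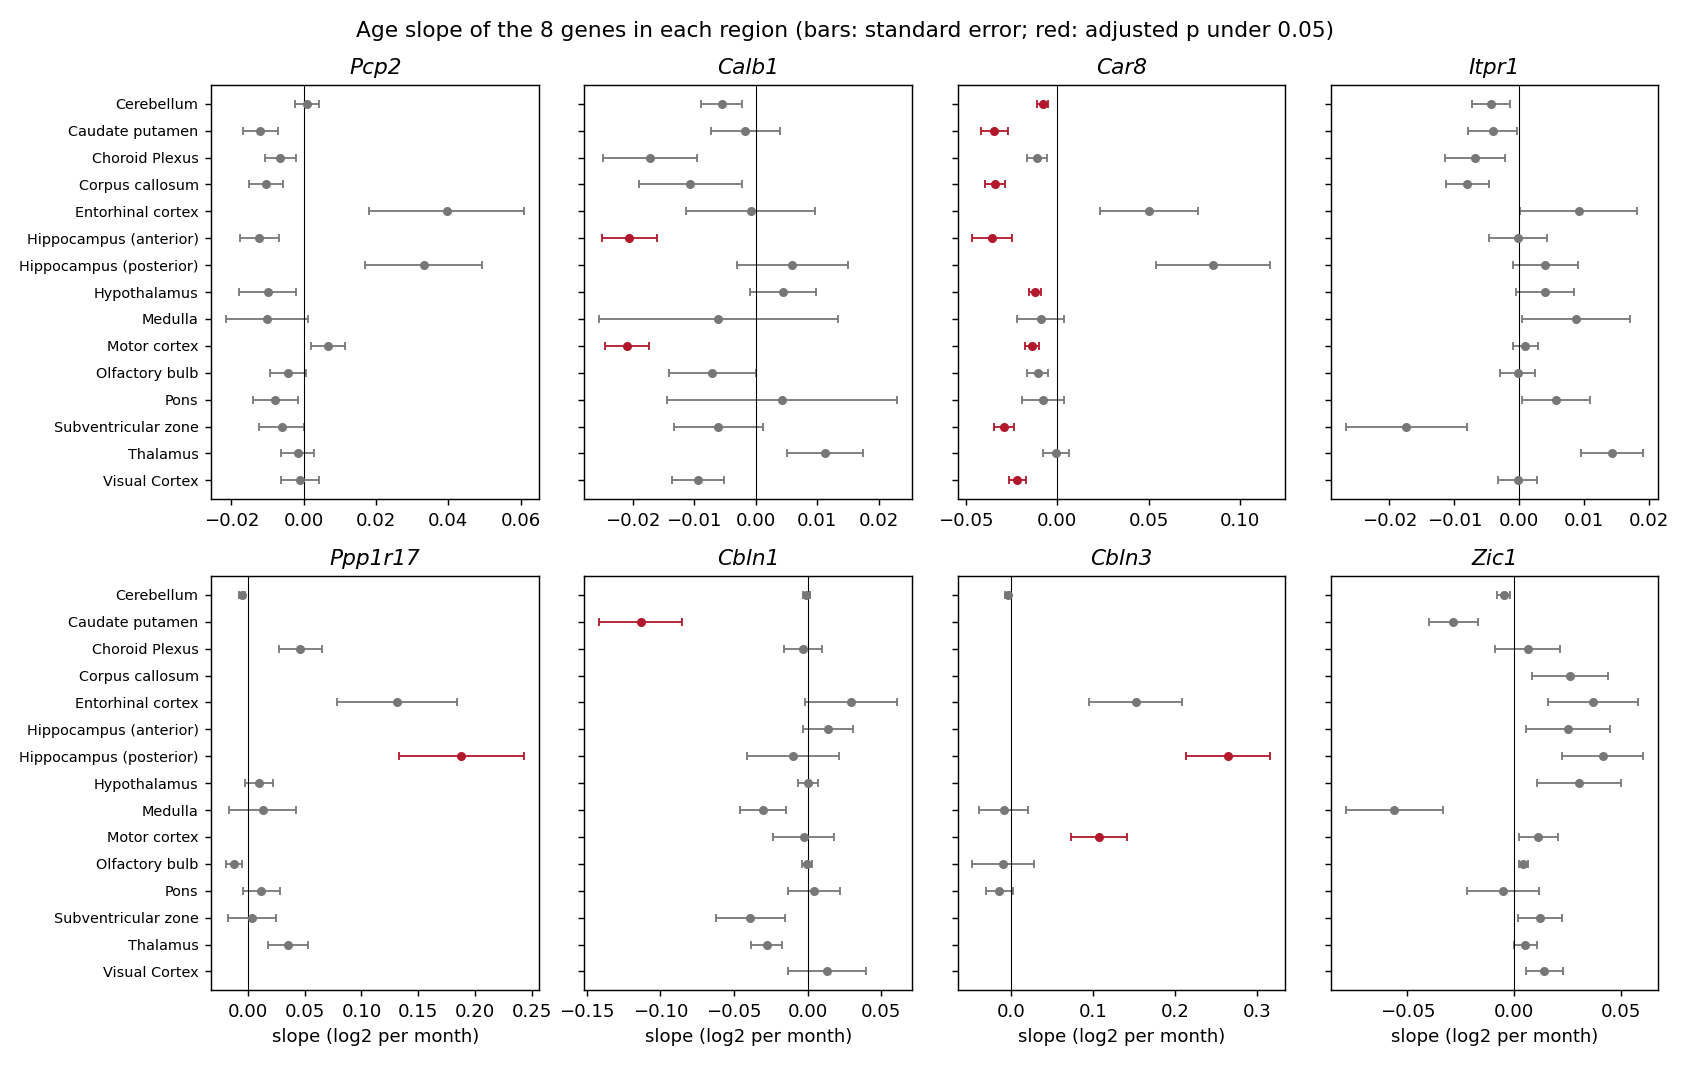
Points are age slopes in log2 per month with their standard errors for each gene and region; red marks an adjusted p under 0.05 and a missing point a gene that did not pass the filter there. Car8 slopes lie below 0 in 13 of 15 regions and are red in 8, and the slopes of Cbln3 and Ppp1r17 are highest in posterior hippocampus, at 0.27 and 0.19.

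Whether the slopes in cerebellum differ from those of its neighbours was tested in 1 fit over cerebellum, medulla and pons (167 libraries). None of the 8 genes passed against medulla, where 1.37% of all genes did, and none against pons, where 0.557% did. Before adjustment, 1 gene had a p under 0.05 against medulla and 0 against pons. Zic1 had the largest difference, a slope higher in cerebellum than in medulla by 0.047 log2 per month (SE 0.020, unadjusted p = 0.024, edgeR adjusted p = 0.268). For Car8 the difference from medulla was 0.00015 (SE 0.013) and that from pons -0.00099 (SE 0.014). With the mouse as a replicate block the count was again 0 of 8 in both comparisons.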

How the data were processed

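Read counts per gene were deposited by the authors as 1 table for 847 libraries. Per the labels, RNA was isolated from homogenized tissue, made into cDNA with Smart-Seq2 and tagmented with Nextera XT, and libraries were unstranded. The submitters' processing notes name Trim Galore 0.3.7, STAR 2.5.3a, DESeq2 and GRCm38; the counting program and annotation are not given in the sources used here. Reads carry no molecular identifiers. All columns were mapped to labelled samples, and 1 library per mouse and region is the replicate. Cerebellum libraries held from 731048 to 19041782 reads.

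Tests were fitted over all genes in R 4.3.3 with edgeR 4.0.16 (quasi-likelihood, TMM, filterByExpr on sex and age groups), and p-values were adjusted by Benjamini-Hochberg over all genes tested, with a threshold of 0.05. Slopes are in log2 per month. Printed levels are CPM of the library total. The age fit was tested on counts simulated from the cerebellum libraries. It recovered 40% of true slopes of 0.01 log2 per month and 89.9% of those of 0.03, for genes drawn at random among those tested. Alternatives used RLE factors, library totals, no filter, DESeq2 1.42.0, limma 3.58.1 (voom), depth covariates, subsets of mice and single libraries left out. The comparison within mice 1 to 15 and several subsets, those of the marker lists included, were added after values were seen. The 8 genes and the 15 marker lists (134 genes) were chosen with earlier results of these data known.

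Named genes are the 8 genes, up to 3 genes of each list with the smallest adjusted p past the threshold and at least 5 CPM, and for each of the 8 the 2 genes with the highest r over cerebellum libraries and over region means; some of these are not reported here. Genes of lists named beyond these, such as Gabrd, Pax6 and Wif1, were chosen after their values were seen. Regions share mice by label, so mice pair the regions. Residuals of a mouse in cerebellum had a median r of 0.014 with the same mouse's medulla (58 mice) and 0.0028 with its pons (51 mice). Promoter sequences are from RefSeq. Python 3.11.15, pandas 2.3.3, scipy 1.17.1 and matplotlib 3.10.9 were used.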

Additional observations from a re-analysis of the deposited data

Results flagged for a closer look

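Of 88 groups of gene, sex and age in cerebellum with 4 to 6 libraries, 10 held 1 library whose gap to the nearest other exceeded the 95% critical value of Dixon's test. Chance gives about 1 in 20 groups. Mouse 23 (male, 18 months) gave Calb1 at 3184 CPM, where the other 4 males lay between 1658 and 1982, and Zic1 at 166 CPM, where they lay between 318 and 380. Mouse 55 (female, 18 months) gave Calb1 at 2315 CPM (others 1755 to 1913) and Cbln3 at 747 CPM (others 891 to 945). Mouse 37 gave Car8 at 3512 CPM among 3-month females (others 4023 to 4181), and mouse 36 gave Car8 at 4280 CPM among 21-month males (others 3585 to 3824). Mouse 17 gave Pcp2 at 416 CPM among 3-month males (others 543 to 582). For Ppp1r17, mouse 7 had 442 CPM among 12-month females (others 354 to 367) and mouse 5 had 339 CPM among 26-month males (others 291 to 300). Mouse 3 gave Zic1 at 242 CPM among 12-month males (others 309 to 330). Mice 23 and 55 were each high for Calb1 and low for a granule cell gene.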

How the results depend on the processing

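The higher level in cerebellum of all 8 genes, and the absence of calls for sex and for slope differences from medulla and pons, held under each alternative run for them, including the mouse as a replicate block, which left 16 of 16 level calls and 0 of 16 slope calls; it changed no call. Counts of calls moved as follows. The 1 call for age slope in cerebellum became 0 with RLE factors, depth covariates, library totals, males alone, mice 16 to 56 alone, no filter, without mice 1 to 15 and without mice 25 and 40, and lay between 0 and 1 when 1 library was left out. The 3 calls of later ages against 3 months became 1 in males alone and lay between 2 and 5 when 1 mouse was left out (5 without mouse 23 and 5 without mouse 37), with 4 by DESeq2 and 2 with library totals and with no filter. The 13 calls in other regions became 8 in males alone. The 0 calls at 26 against 12 months within mice 1 to 15 became 1 with DESeq2. The 19 correlated pairs became 10 within mice 1 to 15, and 14 without mouse 23. Itpr1 with Ppp1r17 (r = 0.35) had r = -0.0010 within mice 16 to 56, 0.73 within mice 1 to 15 and 0.53 without mouse 23. The causes were not tested. The 26- and 28-month groups hold 5 and 3 males, and levels near 0 CPM outside cerebellum rest on few reads.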
